A study of Mus musculus with 4 samples.

Results

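The integrins and homing adhesion molecules described here are 10 genes: Itga4, Itga6, Itgal, Itgam, Itgax, Itgb1, Itgb2, Itgb7, Cd44 and Selplg. They were chosen by name, and every microarray probe set annotated to exactly 1 of them was taken, which gave 24 of 45037 probe sets and 10 of 18193 genes. RNA came from foetal liver cells of mouse embryos at E13.5, sorted for the LSK phenotype (no lineage markers, with cKit and Sca1), in which blood stem cells and multipotent progenitors are found. The HES1-GFP positive group is 1 array and the HES1-GFP negative group is 3 arrays. All 4 samples are labelled female with the genotype Hes1 GFP/WT, so that cells of both groups had the reporter on 1 allele and a wild-type allele beside it. No reporter-free sample is among them. Per the labels' protocols, 5 ng of RNA was amplified for each array. Values are log2 of the authors' RMA intensity, and a difference is the positive array minus the mean of the negative arrays.

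Integrins are receptors made of 1 alpha and 1 beta chain that bind matrix proteins and counter-receptors on other cells, and adaptors at their tails switch them between resting and active states. In blood progenitors the alpha chain encoded by Itga4 pairs with the products of Itgb1 or Itgb7, that of Itga6 with Itgb1, and those of Itgal, Itgam and Itgax with Itgb2. Cd44 is a receptor for hyaluronan, and Selplg is the backbone of the main ligand for P-selectin. Together such molecules hold progenitors in the foetal liver and guide them from blood into bone marrow, spleen and thymus.

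Hes1 itself went against the labels. It was at 6.57 in the positive-labelled array and at 8.78, 9.07 and 6.70 in negative replicates 1, 2 and 3, so the group names below are those of the labels only. Over all 45037 probe sets the positive-labelled array had its highest Pearson correlation with negative replicate 3, 0.974, against 0.959 and 0.958 with replicates 1 and 2 (across probe sets, which are not independent replicates). The median intensities of the 4 arrays lay between 74.7 and 76.1. Kit, which encodes the cKit of the gate, was at 10.13 in the positive-labelled array and at 9.90, 9.72 and 9.68 in negative replicates 1, 2 and 3, and Ly6a, which encodes Sca1, was not analysed here. Of 4 further progenitor genes that are not part of the gate, Flt3 lay below the negative range (11.07 against 12.12, 11.95 and 11.63), Cd34 above it (11.87 against 11.42, 10.80 and 11.70), and Mecom and Procr within it. Nothing in the labels tells whether separate embryos or sorts gave the 3 negative samples, so p-values measure the spread between these arrays, which may be technical, and they assume that the lone positive array varies like the negative ones.

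None of the members differed between the groups by limma's test. It called 0 of the 24 member probe sets at an adjusted p under 0.05, as it called 0% of all 45037. At an unadjusted p under 0.05 it gave 1 of the 24 and 2032 of the 45037. In 11 of the 24 member probe sets the positive-labelled array fell beyond the 3 negative values, against 46.9% of all probe sets. It lay above the negative range, the span of those 3 values, in 3 (background 23.2%) and below it in 8 (background 23.6%), and in 0 of the 24 by at least 1 log2 unit (background 1.98%). Of the 8 below, 4 were among the 6 probe sets whose mean did not exceed the median level of the arrays. The median difference over the 24 was -0.15 log2 units, beside -0.01 over all probe sets. Without negative replicate 1 the counts were 4 above (background 30%) and 9 below (background 34.5%). Without replicate 2 they were 3 (31.3%) and 11 (31%), and without replicate 3 they were 5 (34.4%) and 14 (32.5%). Leaving out an array can only shrink the negative range, so such counts cannot fall. The 14 included all 5 Itga4 probe sets, which share 1 RNA. They also included Selplg and 1443265_at of Cd44, whose positive-labelled array differed from replicate 2 by only -0.0064 and -0.0001.

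**Figure D1:**
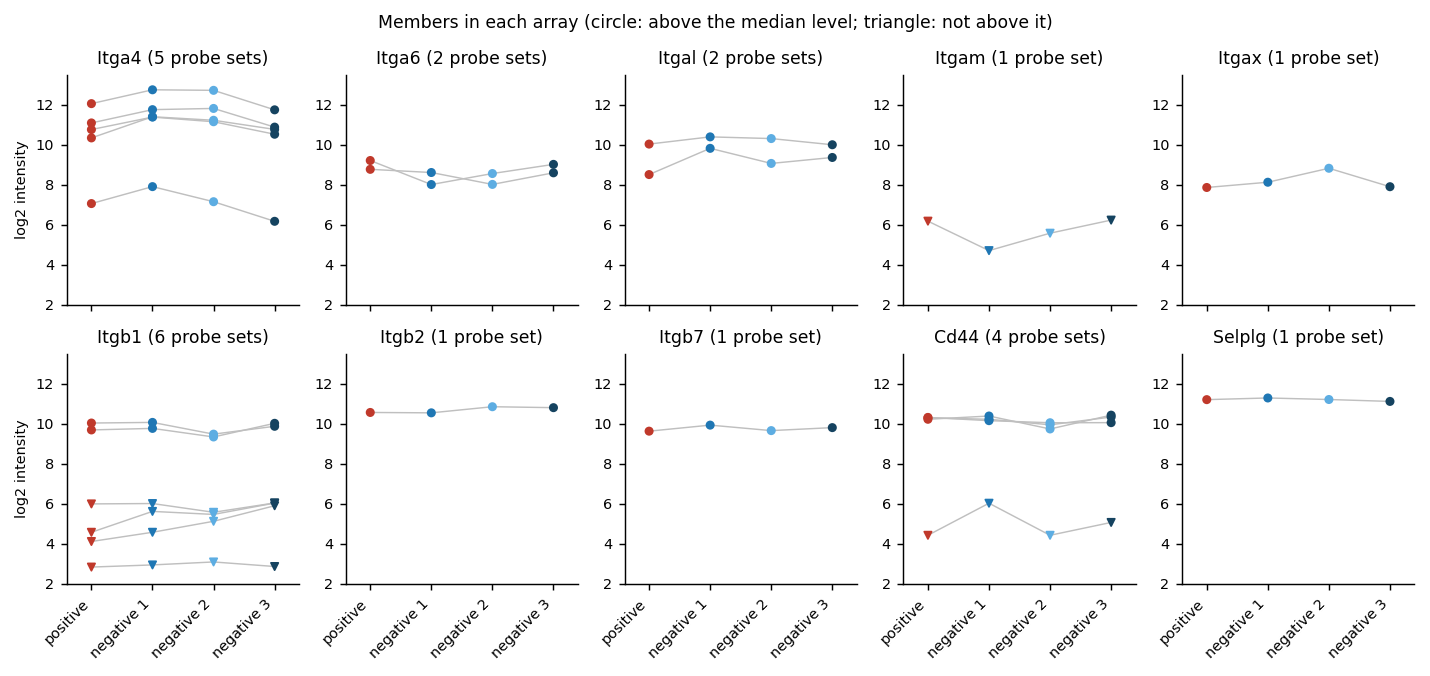
Log2 intensity (vertical axis) of every member probe set in the array labelled HES1-GFP positive (red) and in negative replicates 1, 2 and 3 (blues), with 1 panel per gene and a grey line joining the values of a probe set. Circles are probe sets whose mean is above the median level and triangles those not above it. The Itga4 lines dip together in the positive array and in negative replicate 3, while the Selplg line is flat between 11.11 and 11.28.

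Itga4, the alpha chain of the receptors for Vcam1, fibronectin and Madcam1, had 5 probe sets, all above the median level. In the brightest, 1436037_at, it was at 12.05 in the positive-labelled array and at 12.74, 12.71 and 11.74 in negative replicates 1, 2 and 3. The positive-labelled array thus lay between negative replicate 3 and the other 2, with a difference of -0.35 (SE 0.51, 95% interval -1.80 to 1.11, limma adjusted p = 1.00). The next, 1450155_at, was at 11.08 against 11.75, 11.81 and 10.88, and 1421194_at was at 10.75 against 11.38, 11.14 and 10.52. In each the positive-labelled array again lay between negative replicate 3 and the other 2. In 1456498_at the positive-labelled array was the lowest of the 4, at 10.34 against 11.39, 11.22 and 10.76, a difference of -0.79 (SE 0.33, 95% interval -1.73 to 0.15). The dimmest, 1427615_at, was at 7.06 against 7.91, 7.15 and 6.18.

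All 5 Itga4 probe sets therefore had the positive-labelled array below negative replicates 1 and 2, and all 5 had negative replicate 3 below those 2 as well. Probe sets of 1 gene share its RNA and are not replicates of the condition, and in RNA of pooled cells fewer cells of a type cannot be told apart from less RNA per cell. The value of the brightest probe set depended on which negative array was left out. Its difference was -0.68 without negative replicate 3, -0.18 without replicate 1 and -0.19 without replicate 2, with limma adjusted p of 0.719 or higher in each.

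Itga6, the alpha chain of a laminin receptor carried by stem cells and by megakaryocytes, was the single member above the negative range in all of its probe sets. Probe set 1422445_at was at 9.21 in the positive-labelled array and at 8.01, 8.56 and 9.02 in negative replicates 1, 2 and 3. Its difference was 0.68 (SE 0.46, 95% interval -0.63 to 1.99, limma adjusted p = 1.00). Probe set 1422444_at was at 8.77 against 8.61, 8.02 and 8.60, a difference of 0.36 (SE 0.34). The groups do not overlap in either probe set, but the gap to the nearest negative array was 0.19 in the first and 0.16 in the second, and the nearest array was not the same one. Without negative replicate 1 the difference of 1422445_at was 0.42, and without replicate 2 that of 1422444_at was 0.17.

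Itgal, the alpha chain of the receptor through which leukocytes bind Icam1 and Icam2, had a pair of probe sets that spread unequally. The brighter, 1435560_at, was at 10.03 in the positive-labelled array and at 10.39, 10.30 and 9.996 in the negative arrays, a difference of -0.20 with a 95% interval of -0.93 to 0.53, or -0.12 without negative replicate 1 and -0.32 without replicate 3. The other, 1425367_at, was at 8.51 against 9.82, 9.06 and 9.36. There the positive-labelled array lay 0.56 below the lowest negative array, the widest such gap among member probe sets above the median level. Its difference was -0.91 (SE 0.37, 95% interval -1.95 to 0.14, limma adjusted p = 1.00).

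Itgam and Itgax encode the alpha chains of the complement receptors that mark monocytes, granulocytes and macrophages (Itgam) and dendritic cells and macrophages (Itgax). In the reference gene table (GRCm38.p6) they are neighbouring protein-coding genes on chromosome 7, with Itgad next to Itgax. Itgam, measured by 1 probe set not above the median level, was at 6.18 in the positive-labelled array and at 4.71, 5.58 and 6.24 in negative replicates 1, 2 and 3. Its difference was 0.67 (SE 0.67, 95% interval -1.22 to 2.56), or 0.27 without negative replicate 1 and 1.04 without replicate 3. Itgax, also with 1 probe set, was at 7.86 against 8.13, 8.82 and 7.90, a difference of -0.42 (SE 0.44, 95% interval -1.68 to 0.84), or -0.15 without negative replicate 2. The positive-labelled array and negative replicate 3 were the higher 2 arrays for Itgam and the lower 2 for Itgax. In both genes these 2 arrays differed by less than 0.1 log2 units, with -0.05 for Itgam and -0.04 for Itgax.

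The start regions of these neighbours are shown because the genes had their high and low arrays reversed, together with that of Itga4, whose low arrays were those of Itgax. They were thus picked by pattern. The brighter probe set of Itgal had the same low arrays as Itgax, and 1422445_at of Itga6 the same high arrays as Itgam. No start region was available for Itgal or Itga6. The sequences are RefSeq's, GRCm38.p6, plus strand, 5′ to 3′, from 250 bases before to 50 bases after the annotated start. Capitals mark GAGGAA, the core of sites bound by the myeloid and lymphoid factor PU.1, and TGTGGT, the core of sites bound by RUNX factors, on either strand.
Itgam, chr7:128062390-128062689: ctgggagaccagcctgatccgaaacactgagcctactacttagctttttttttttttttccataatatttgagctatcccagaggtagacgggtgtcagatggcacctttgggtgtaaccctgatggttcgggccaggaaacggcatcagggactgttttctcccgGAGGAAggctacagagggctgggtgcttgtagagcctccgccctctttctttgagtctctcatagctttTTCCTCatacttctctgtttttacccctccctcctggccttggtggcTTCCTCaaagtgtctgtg
Itgax, chr7:128129300-128129599: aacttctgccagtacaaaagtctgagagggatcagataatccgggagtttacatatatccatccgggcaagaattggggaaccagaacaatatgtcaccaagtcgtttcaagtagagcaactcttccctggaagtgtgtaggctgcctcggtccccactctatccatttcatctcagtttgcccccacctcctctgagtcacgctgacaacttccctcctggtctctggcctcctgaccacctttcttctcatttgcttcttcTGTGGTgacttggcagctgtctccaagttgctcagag
Itga4, chr2:79255176-79255475: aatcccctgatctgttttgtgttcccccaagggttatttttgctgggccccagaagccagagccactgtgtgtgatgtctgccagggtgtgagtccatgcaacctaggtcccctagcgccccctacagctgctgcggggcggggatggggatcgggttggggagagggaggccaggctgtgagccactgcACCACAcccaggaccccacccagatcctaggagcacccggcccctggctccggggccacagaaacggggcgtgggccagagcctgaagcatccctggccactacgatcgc
Itgam holds 3 GAGGAA matches and 0 TGTGGT matches. Itgax and Itga4 hold 0 GAGGAA matches and 1 TGTGGT match each. No base belongs to both motifs. Of 32851 start regions of the same length, 28.3% hold GAGGAA and 16.8% hold TGTGGT on either strand, and of the 6 members with an entry 4 hold the first (Itgam, Itgb1, Itgb7 and Cd44) and 2 the second. A match describes these letters and shows neither binding nor a cause of the values.

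The brightest probe sets of the 3 beta chains differed by 0.23 log2 units or less in size. Itgb2, shared by the receptors of Itgal, Itgam and Itgax, was at 10.56 in the positive-labelled array and at 10.54, 10.85 and 10.80 in negative replicates 1, 2 and 3, a difference of -0.17 with a 95% interval of -0.83 to 0.49, or -0.26 without negative replicate 1 and -0.11 without replicate 2. Itgb7, the partner of Itga4 in the receptor for gut homing, was at 9.63 against 9.93, 9.65 and 9.80, a difference of -0.17 with a 95% interval of -0.80 to 0.46, or -0.10 without negative replicate 1. For both genes the interval lay within 1 log2 unit of 0.

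Itgb1, the common partner of Itga4 and Itga6 and of many other alpha chains, had 6 probe sets, 2 of them above the median level. Of these, 1426918_at was at 10.03 in the positive-labelled array and at 10.06, 9.48 and 9.87 in the negative arrays, a difference of 0.23 (95% interval -0.66 to 1.12), or 0.07 without negative replicate 2 and 0.36 without replicate 1. The other, 1452545_a_at, was at 9.69 against 9.76, 9.34 and 10.02, a difference of -0.02 (95% interval -0.996 to 0.958). In both the positive-labelled array lay inside the negative range. The 4 remaining Itgb1 probe sets were dim, and 3 of them had the positive-labelled array below all negative arrays. In 1426920_x_at it was at 4.58 against 5.62, 5.47 and 6.04, a difference of -1.13 (SE 0.31, 95% interval -2.01 to -0.25). That was the lowest p of any member probe set, 0.0239 unadjusted and 0.984 after limma's Benjamini-Hochberg adjustment over all probe sets, and the suffix marks a probe set with probes that may match other transcripts. In 1426919_at it was at 4.12 against 4.58, 5.13 and 5.90. The average over all 6 probe sets was -0.34, opposite in sign to the brightest.

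**Figure D2:**
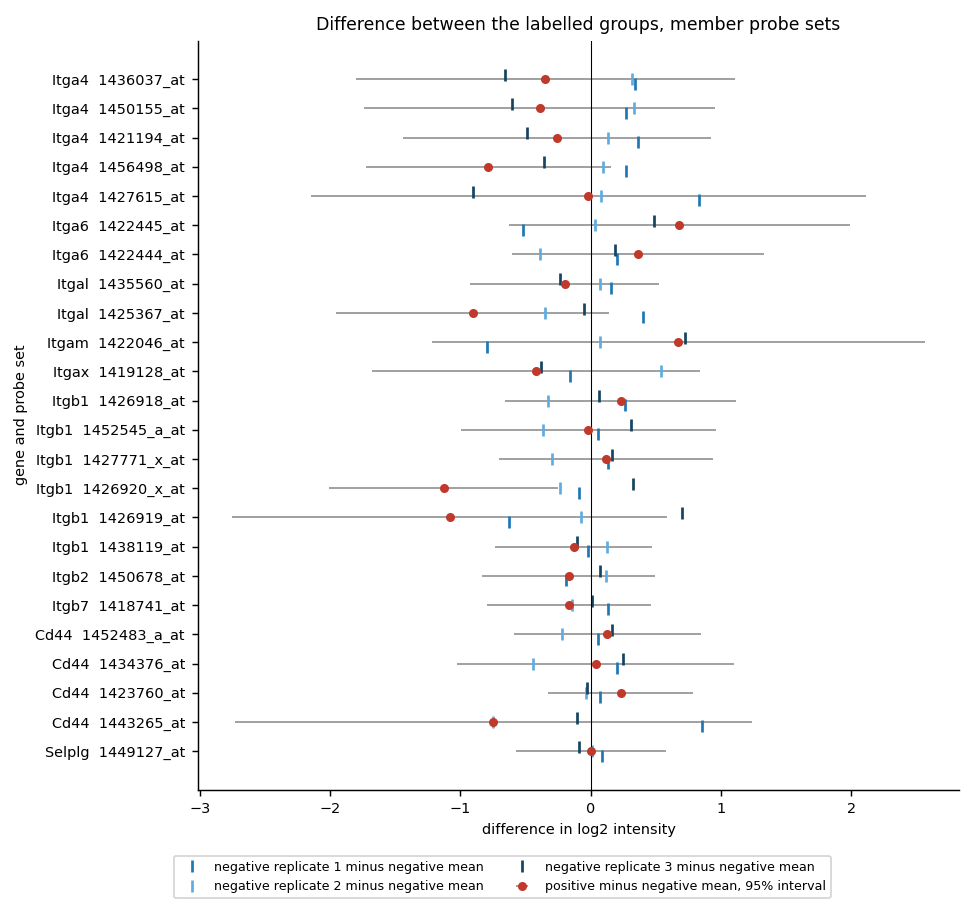
Difference in log2 intensity (horizontal axis) between the array labelled HES1-GFP positive and the mean of the negative arrays for each member probe set (red points, with limma's 95% intervals in grey). Blue ticks give negative replicates 1, 2 and 3 minus their own mean. The interval includes 0 for 23 of the 24 probe sets, and the exception is the dim Itgb1 probe set 1426920_x_at.

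Cd44, the hyaluronan receptor, had 3 probe sets above the median level with differences of 0.23 log2 units or less. Probe set 1452483_a_at was at 10.29 in the positive-labelled array and at 10.22, 9.94 and 10.33 in negative replicates 1, 2 and 3, a difference of 0.13 (95% interval -0.59 to 0.84). It was 0.02 without negative replicate 2 and 0.21 without replicate 3. Probe set 1434376_at was at 10.22 against 10.38, 9.74 and 10.43. The third, 1423760_at, was at 10.31 against 10.15, 10.05 and 10.05, and its positive-labelled array lay 0.16 above the highest negative array. The dim 1443265_at was at 4.43 against 6.03, 4.43 and 5.07, where the positive-labelled array and negative replicate 2 differed by 0.0001. With that probe set in the average, the difference of Cd44 was -0.09.

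Selplg, whose product carries the sugars that selectins bind, was the most even member. Its probe set was at 11.20 in the positive-labelled array and at 11.28, 11.21 and 11.11 in negative replicates 1, 2 and 3. The 4 arrays spanned 0.17 log2 units, and the difference was -0.0002 (SE 0.20, 95% interval -0.57 to 0.57). With the brightest probe set of each gene, the 95% interval lay within 1 log2 unit of 0 for 5 of the 10 members, namely Itgal, Itgb2, Itgb7, Cd44 and Selplg. It did not for other probe sets of Itgal and Cd44 above the median level. There it was -1.95 to 0.14 for 1425367_at of Itgal and -1.02 to 1.10 for 1434376_at of Cd44. For the brightest probe sets of Itga4 and Itgam the interval was wider and held differences beyond 1 log2 unit in both directions. Those of Itga6 and Itgb1 held rises beyond 1 log2 unit but no such falls, and that of Itgax falls but no such rises. In the directions held, differences of that size could not be detected or set aside with these arrays.

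The members were also compared by their span, the highest minus the lowest of the 4 log2 values, without regard to labels. Over probe sets above the median level, the 10 of 4 alpha chains (Itgam has none there) spanned 0.39 to 1.73 log2 units with a median of 0.98. The 4 of the beta chains spanned 0.30 to 0.68 with a median of 0.45, and the 3 of Cd44 spanned 0.27 to 0.69. The median over all probe sets above the median level was 0.753. By rank among those, the brightest Itga4 probe set stood at percentile 65.6, that of Itga6 at 74.9, those of Itgb2 and Itgb7 at 13.7 and 13.4 and that of Selplg at 4.803. Of the 10 alpha chain probe sets 8 lay above that median, 5 of them from Itga4 alone, whose probe sets share 1 RNA. The exceptions were the brighter one of Itgal (0.39) and 1422444_at of Itga6 (0.752). All 8 probe sets of the beta chains, Cd44 and Selplg lay below it. Over all probe sets, dim ones included, the median span was 0.59, and the members were not matched on level for this description.

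**Figure D3:**
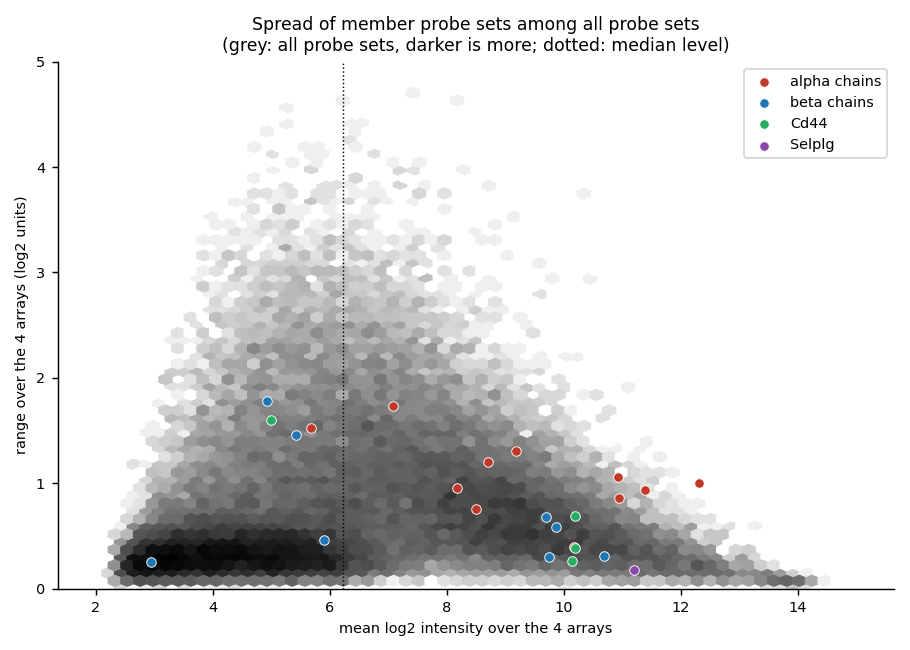
Span over the 4 arrays (vertical axis, log2 units) against mean log2 intensity (horizontal axis) for all 45037 probe sets (grey, darker for more) and the 24 member probe sets (coloured by alpha chains, beta chains, Cd44 and Selplg). To the right of the dotted median level, alpha chains reach 1.73 log2 units and beta chains 0.68. To the left of it, a dim Itgb1 probe set reaches 1.78.

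Between pairs of arrays, the 18 member probe sets above the median level differed by a median of 0.21 log2 units from positive to negative replicate 3, 0.28 to replicate 1 and 0.44 to replicate 2. The corresponding medians over all probe sets above the median level were 0.26, 0.36 and 0.38. Among the negative arrays, the members differed by 0.29 between replicates 1 and 2, 0.26 between replicates 1 and 3 and 0.46 between replicates 2 and 3. The positive-labelled array was closest to negative replicate 3 in 10 of the 24 member probe sets (39.7% of all probe sets), to replicate 1 in 8 (31.1%) and to replicate 2 in 6 (29.2%).

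Markers of other blood cells divided the arrays in the same way as Itga4 and Itgam. The 12 macrophage markers summed to an intensity of 4283 in the positive-labelled array and to 26648, 24970 and 3856 in negative replicates 1, 2 and 3, with 6 of 12 below the negative range. The 9 B lineage markers summed to 3987 against 22110, 21958 and 3940, with 5 of 9 below it. The 10 granulocyte and monocyte markers ran the other way, at 75514 against 42347, 43180 and 74410, with 7 of 10 above the negative range. Macrophages and B cell precursors carry the product of Itga4. Granulocytes and monocytes carry that of Itgam, and so do macrophages, whose markers were low in the 2 arrays where Itgam was higher. No probe set on these arrays is at 0, the lowest intensity being 4.27, so a value above 0 does not show that a cell type was present. Their part in the values of Itga4, Itgam and Itgax was not tested.

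Of the other marker lists, the positive-labelled array lay below the negative range in 5 of 8 endothelial markers and above it in 1. It lay below in 4 of 7 T and natural killer markers and above in 0, and for mast and basophil markers below in 2 of 6 and above in 1. The mast and basophil markers summed to 2086 in the positive-labelled array and to 10034, 9782 and 1913 in negative replicates 1, 2 and 3. Among them Cma1 was at 5.97 against 12.35, 12.39 and 6.22, while Mcpt8 ran the other way, at 7.55 against 5.91, 6.24 and 7.78. The positive-labelled array lay above the negative range in 2 of 6 megakaryocyte markers and below in 1, above in 3 of 8 hepatoblast and 1 of 5 erythroid markers, and below in 0 of either. With 1 probe set per gene the background was 23% below and 23.6% above. The 7 dendritic markers, of interest beside Itgax, were divided, with 4 above and 2 below. Their sum, 10563 in the positive-labelled array and 7231, 6631 and 10877 in the negative arrays, came in the positive-labelled array mostly from the MHC class II genes H2-Aa and H2-Ab1 and their chaperone Cd74, at 11.41, 11.17 and 11.77 there. Siglech, a receptor of plasmacytoid dendritic cells, was at 8.83 against 10.70, 10.38 and 9.50, with its lower values in the same 2 arrays as those of Itgax. Zbtb46, also on the dendritic list, ran the other way, at 7.76 against 6.63, 6.76 and 7.62, with its higher values in those 2 arrays.

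By closeness of their 4 log2 values after centring, the genes most like the 3 members with the widest span were listed. For Itga4 these were Cd300c2, a receptor of the CD300 family, Clock, a circadian transcription factor, and Zfp397, a zinc finger gene, with root mean square distances of 0.02, 0.03 and 0.04 log2 units. For Itga6 they were Gmeb1, Utp4 and Bcorl1, at 0.03, 0.04 and 0.05. For Itgam they were Cryz, Ttf1 and Zfp995, at 0.06, 0.06 and 0.07. With 4 arrays and 18193 genes such closeness is a description only.

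The other genes of the adhesion pathway were read from lists, with 1 probe set per gene, and limma called 0 of them in either direction. Among 11 other integrin alpha chains, the positive-labelled array was above the negative range in 1 and below it in 2, and the median difference was 0.12 log2 units. Itga9, an alpha chain that also pairs with Itgb1 and binds Vcam1, was at 8.51 in the positive-labelled array and at 9.87, 10.18 and 8.13 in negative replicates 1, 2 and 3. All 3 of its probe sets, like those of Itga4, had the positive-labelled array below replicates 1 and 2. Itga2, a collagen receptor chain, was at 5.55 against 6.29, 7.06 and 6.49 (difference -1.06). Itga8 and Itga1 differed by 0.88 and 0.65 in probe sets not above the median level, with the second probe set of Itga1 at -1.31. Itga8 was at 5.03 against 3.55, 5.69 and 3.22 (SE 1.12). Of 6 other beta chains, Itgb3, the partner of the platelet chain Itga2b, was at 7.83 against 8.83, 8.65 and 8.98 (difference -0.99, SE 0.23), and its second probe set differed by -0.30. Itgb4, a partner of Itga6 in epithelia, was at 7.19 against 6.70, 6.60 and 6.46, and Itgb5 and Itgbl1 differed by 0.33 and -0.27. The probe set of Itgbl1 was not above the median level. The median over the 6 was 0.05.

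Ligands and counter-receptors numbered 18, of which 3 were above the negative range and 5 below, and their median difference was -0.02. Vcam1, the counter-receptor of the Itga4 and Itgb1 pair, had the most negative value, -3.08, and its other probe sets differed by -2.12 and -0.68. It is also one of the macrophage markers above. Icam1, bound by the Itgb2 receptors, was at 9.26 in the positive-labelled array and at 10.09, 9.53 and 10.53 in the negative arrays. Lamc1, a laminin chain, and Has2, a hyaluronan synthase, differed by 1.03 and 1.01, but the second probe set of each differed by -0.74 and -0.51. Jam2, a junctional adhesion molecule that binds Itga4 with Itgb1, differed by -0.99 in its brightest probe set and by -0.88 to 0.11 in its 4 others. Even the brightest probe sets of Has2 and Jam2 were not above the median level.

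Among 23 adaptors and switches that act on integrin tails, 3 were above the negative range and 9 below (39.1%, beside 23% of all genes), and the median difference was -0.16, beside -0.001 over all genes. Apbb1ip, which links the GTPase Rap1 to talin, was at 8.43 in the positive-labelled array and at 8.97, 9.31 and 8.81 in the negative arrays, and Parvb, a parvin, at 7.60 against 8.39, 8.07 and 8.13. The second probe set of each ran the other way, with differences of 0.17 for Apbb1ip and 0.37 for Parvb. Sharpin, an inhibitor of integrin activation, was at 10.48 against 9.68, 9.85 and 9.71, a difference of 0.74, while its second probe set differed by -0.01. Skap1, a T cell adaptor, differed by -0.82, and by -0.24 and -0.22 in its other probe sets. For Rasgrp2 and Fyb, picked after values were seen, the negative difference held over the probe sets. Rasgrp2 differed by -0.54 in its brightest and by -0.81 averaged over 4, and Fyb by -0.54 and by -0.41 averaged over 2. Tln1 did not hold, at -0.17 in its brightest and 0.37 averaged over 3. Stk4 did not either, at -0.14 in its brightest and 0.01 averaged over 3.

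Of 14 genes that build the sugars of selectin ligands and Cd44 or anchor them, 3 were above the negative range and 4 below, and the median was -0.14. Fut7, the fucosyltransferase that makes the selectin-binding sugar on the Selplg product, was at 9.05 in the positive-labelled array and at 7.20, 7.22 and 7.89 in negative replicates 1, 2 and 3. The gap to the nearest negative array was 1.17 log2 units, the difference 1.62 (SE 0.37, limma adjusted p = 1.00), and the gene has a single probe set. St3gal6, a sialyltransferase of the same pathway, was at 7.94 against 9.74, 10.09 and 8.83 (difference -1.61), or -0.53 over its 5 probe sets. St3gal4, another sialyltransferase, and Tpst1, which adds sulphate to tyrosines of such ligands, differed by -0.88 and -0.69. The probe set of St3gal4 was not above the median level.

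Of 13 other adhesion molecules of progenitors, 3 were above the negative range and 5 below (38.5%, beside 23% of all genes). Their median difference was -0.14. Pecam1, an adhesion molecule of endothelium and leukocytes, was at 7.76 in the positive-labelled array and at 10.03, 9.27 and 7.93 in the negative arrays, and Esam, which marks endothelium and stem cells, differed by -1.17. Cd9, a tetraspanin found with integrins, was at 9.07 against 7.90, 7.61 and 8.95, while the 5 probe sets of Alcam, which binds Cd6, went both ways, from -1.02 to 0.49, with the brightest at -0.63.

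**Figure D4:**
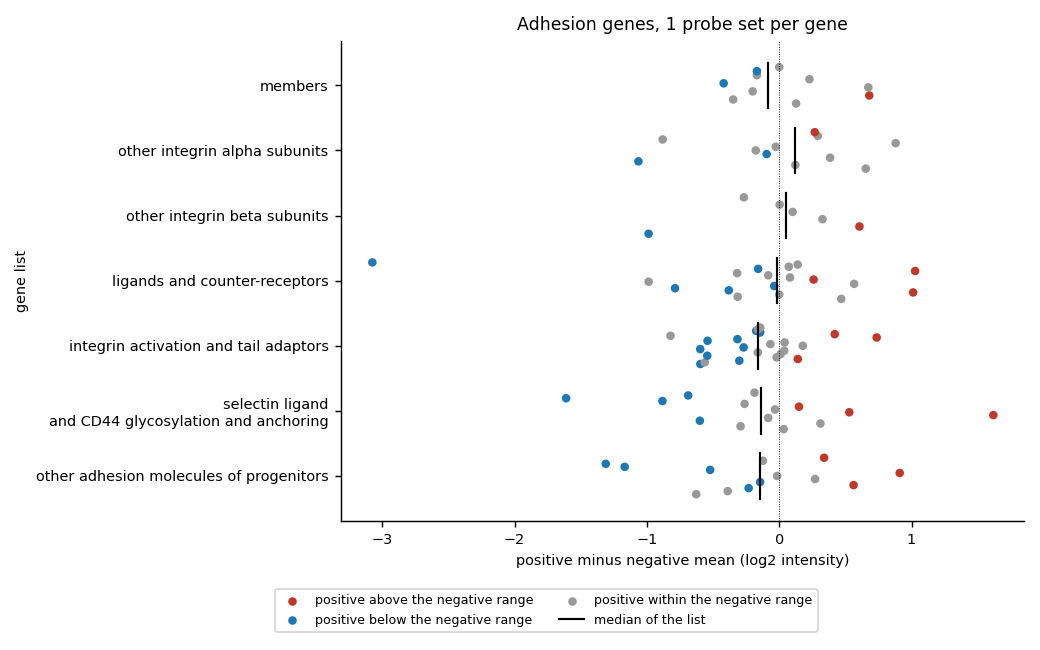
Difference in log2 intensity between the array labelled HES1-GFP positive and the mean of the negative arrays (horizontal axis) for the members and 6 lists of other adhesion genes (rows), 1 point per gene, coloured by whether the positive-labelled array lies above, below or within the negative range. Black bars are list medians, which run from -0.16 to 0.12, and the points furthest out are Vcam1 at -3.08 and Fut7 at 1.62.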

How the data were processed

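RMA is the method named by the submitters' processing notes, with software and version not given in the sources used here. What the authors deposited are linear intensities, 1 per probe set, from 4.27 to 25988.0 without control probe sets, with nearly equal quantiles in the 4 arrays, so the arrays hide any unequal RNA content of the cells. They were taken to log2 with no pseudocount. Of 45101 probe sets, 64 controls were left out, 34945 had 1 gene symbol, 932 several and 9160 none, and 34741 of the first matched the gene table by gene ID. No detection calls were used, and the number of arrays limits the precision.

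limma 3.58.1 (R 4.3.3; lmFit, eBayes, two-sided, Benjamini-Hochberg over all 45037 probe sets, threshold 0.05) compared 1 positive with 3 negative arrays, with 2 residual and 1.8 prior degrees of freedom, and was tested on simulated data. Lists used the probe set with the highest mean per gene. A few listed genes had no probe set of their own here. Named were all member probe sets, up to 4 genes per adhesion list by absolute difference, and the nearest patterns of 3 members. Icam1, Rasgrp2, Fyb, Tln1, Stk4 and the other probe sets of Itgb5 were named after values were seen. The alternatives were cyclic loess, a level filter, log2(intensity + 16), trend and robust eBayes, 1 or averaged probe sets per gene, and leaving out each negative array. Members and lists were chosen with earlier results of these data known.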

Additional observations from a re-analysis of the deposited data

How the results depend on the processing

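limma called 0 genes or probe sets under every one of the 9 alternatives, with 724 to 3275 at an unadjusted p under 0.05, and the lowest adjusted p of a member's brightest probe set in any of them was 0.719. Refits with the level filter, with trend and robust eBayes or with 1 probe set per gene cannot change the difference of a member's brightest probe set. Averaging cannot change it for genes with 1 probe set. With such refits counted, this difference kept its sign in 85 of 89. The exceptions were Cd44 and Itgb1 with averaged probe sets, at -0.088 and -0.34, where dim probe sets enter the mean, and Selplg, near 0 throughout, at 0.0412 without negative replicate 1 and 0.0030 without replicate 2 (lowest -0.0447 without replicate 3). The count of members above the negative range, 3 of 24 probe sets, was 1 of 10 genes with the highest-mean probe set and 1 with averaged probe sets, and 3 to 5 with 1 negative array left out. The count below, 8 of 24, was 4 of 18 above the median level, 2 of 10 with the highest-mean probe set, 4 of 10 with averaged probe sets, and 9 to 14 with 1 negative array left out. With 1 negative array left out, 30% to 34.4% of all probe sets were above and 31% to 34.5% below. Fewer probe sets or arrays enter these counts by construction. Itgam has no value above the median level. No paired analysis was possible because the groups share only replicate number 1. Itgam and the 5 other member probe sets not above the median level are limited by low signal.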

Other observations

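Itgb5, the beta chain that pairs with Itgav to bind vitronectin, was singled out after its values were seen because its 4 probe sets disagree. In 1417533_a_at it was at 4.25 in the positive-labelled array and at 8.84, 6.70 and 5.44 in negative replicates 1, 2 and 3, and in 1417534_at at 5.80 against 8.58, 6.80 and 6.23. Both had the positive-labelled array lowest and negative replicate 1 highest, with differences of -2.74 (SE 1.45) and -1.40 (SE 1.04) and a limma adjusted p of 1.00. The brightest, 1456133_x_at, which stands for the gene in its list, was at 7.97 against 8.98, 7.21 and 6.74, and 1456195_x_at was at 6.84 against 9.06, 8.06 and 5.06. The negative arrays alone spanned 2.24 to 3.998 log2 units.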
